A study of Mus musculus with 6 samples.

Results

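Immunoglobulin kappa V segments are the gene pieces that encode most of the variable domain of the mouse kappa light chain. Of the 34745 rows deposited, 162 carry a symbol that begins with Igkv and a digit, and these 162 rows, under 158 different symbols, were taken as the members whatever their level. RNA was sequenced from 6 tumours of C57BL/6J mice that had been injected under the skin of the right flank with cells labelled B16F10, which is a melanoma line. One group of 3 came from mice fed a normal diet (ND) and the other 3 from mice fed a high cholesterol diet (HCD). Whether each sample came from its own mouse is not stated in the labels. Strain, cells and site were common to both groups, and the age and sex of the mice and the length of feeding are not given in the labels. The labels number the tumours within a diet and do not say how the samples were kept apart, so a p-value here reflects only how much these tumours varied, which may be partly technical.

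A developing B cell joins 1 of its many kappa V segments to 1 of the short Igkj segments, and the joined exon is spliced to the constant region Igkc. The V segments lie in either direction along the locus, so the joining deletes or inverts the DNA between them. Once a light chain works, the cell normally keeps that choice and passes it to its daughters. Antibody-secreting plasma cells make very large amounts of this messenger RNA, so the count of a segment in a piece of tissue does not give a number of cells. In bulk tissue, fewer cells of a type and less RNA per cell cannot be told apart.

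The 6 libraries held 20351637 to 26228074 counts. Levels are given in CPM, counts scaled to a common library total after TMM scaling, a correction for differences in composition. Where 1 library had 0 counts, the level could still be 0.113 to 0.146 CPM (3 counts), a limit for counting error only. The pigment cell genes Tyr, Dct and Mlana had 0 counts in all 6 libraries, and Pmel, a further pigment cell gene, was low in all 6, at 0.672 ± 0.188 CPM (SD, n = 6). The albumin gene Alb averaged 3611 ± 530.0 CPM (SD, n = 6), so the tumours are described here only as labelled B16F10. The listed genes of B lymphocytes were low, and all but Blk and Fcer2a had counts in every library, as given with the kappa V totals.

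Kappa V RNA was present in all 6 tumours, at 5426 counts in all. The total was 179 counts in ND 1, 1234 in ND 2 and 573 in ND 3, and 1376 in HCD 1, 1729 in HCD 2 and 335 in HCD 3. As a level this was 7.99, 46.7 and 27.8 CPM in the ND libraries and 66.3, 83.5 and 16.3 CPM in the HCD libraries. HCD 1 and HCD 2 lay above all ND libraries, HCD 3 lay below ND 2 and ND 3, and ND 1 was lowest, so the diets overlapped. Mean levels were 27.5 ± 19.3 CPM (SD, n = 3) under ND and 55.4 ± 34.9 CPM (SD, n = 3) under HCD, a log2 ratio of 1.01. Leaving out ND 1 or HCD 2 brought this ratio to 0.57 and 0.59, and leaving out ND 2 or HCD 3 brought it to 1.63 and 1.45. The means lay closer together than the SD of the HCD tumours.

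**Figure D1:**
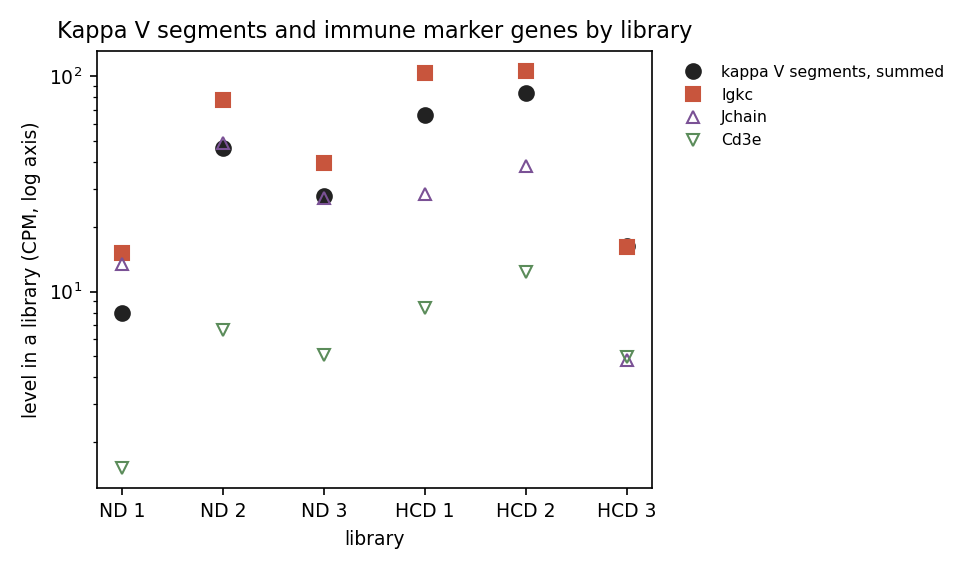
Level in each library (CPM, log axis) of the summed kappa V segments, of Igkc and of the marker genes Jchain and Cd3e, with 1 point per gene and library. Kappa V and Igkc points rank the 6 libraries in the same order, from ND 1 to HCD 2, while Jchain has its lowest point in HCD 3. CPM is not corrected for length, so heights compare libraries, not genes.

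Igkc, the constant region that every kappa messenger carries, ranked the libraries in the same order as the V segments in CPM, with 15.1 CPM in ND 1 and 16.1 CPM in HCD 3 as its lowest levels. In unscaled counts these 2 libraries changed places. It had 337, 2042 and 812 counts in ND 1 to ND 3 and 2152, 2198 and 331 in HCD 1 to HCD 3. Its log2 fold change (HCD over ND) was 0.78 ± 0.77 SE, with an edgeR adjusted p of 0.861. The ratio of kappa V to Igkc counts, which is not corrected for length, was 0.531, 0.604 and 0.706 in ND and 0.639, 0.787 and 1.01 in HCD libraries. HCD 3 thus had as many V as C counts, and ND 1 had the lowest ratio. The 5 Igkj segments, which are very short, had 5 to 37 counts per library in all. Of the light chain V counts, kappa and lambda together, kappa made up 86.5% in ND 1, 81.6% in ND 2, 85.3% in ND 3, 80% in HCD 1, 85.4% in HCD 2 and 95.7% in HCD 3. The exact 95% binomial interval of HCD 3, 93.0% to 97.6%, lay above the intervals of the other 5 libraries, which together ran from 78.1% to 90.8%. Such intervals cover counting error only, since reads from 1 messenger are not independent molecules. The ratio of kappa V to heavy chain V counts ran from 1.61 to 2.56 in ND and from 1.20 to 2.13 in HCD libraries.

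As a sum, genes of B cells were lowest in ND 1 and HCD 3, the libraries with the lowest kappa V totals. Of the 13 B cell markers, 10 had enough counts to be tested, 0 passed in either direction, and the median log2 fold change was 0.88, against 0.01 for all tested genes. Their summed level was 9.60 to 17.1 CPM in ND and 11.7 to 37.9 CPM in HCD libraries. Blk and Fcer2a were at 0 in HCD 3 and had counts in all other libraries. Not every marker followed the sum. Cd22 had 6.23 CPM in HCD 3, above the 2.68 to 5.87 CPM of the ND libraries. In ND 1, Pax5 had 1.56 CPM, above ND 2 at 1.32 and HCD 2 at 1.35 CPM. Cr2 had 1.88 CPM in ND 1, with only HCD 1 higher, at 3.13 CPM. Jchain, which encodes the joining chain of secreted IgA and IgM, had 13.5, 48.9 and 27.3 CPM in ND and 28.3, 38.2 and 4.82 CPM in HCD libraries, highest in ND 2 and lowest in HCD 3. Of the 12 plasma cell genes found, 11 were tested and 0 passed, with a median log2 fold change of -0.04. The fold change was positive for 5 of the 11, and that of Jchain was -0.33. Mzb1, one of the 5, was lowest in ND 1, at 0.268 CPM, and highest in HCD 1, at 2.89 CPM. The summed level of the plasma cell genes, 394.5 to 509.5 CPM, was mostly that of Xbp1, Sdc1 and Prdm1, which other cells also express.

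T cell and macrophage genes were, as sums, lowest in ND 1 and highest in HCD 2, like the kappa V total. All 8 T cell genes were tested, 0 passed, the median log2 fold change was 0.73, and the summed level was 18.8 to 82.1 CPM in ND and 55.7 to 133.8 CPM in HCD libraries. Cd3e, whose product carries the signal of the T cell receptor, was lowest in ND 1, at 1.52 CPM, and highest in HCD 2, at 12.3 CPM. All 5 macrophage genes were tested, 0 passed, the median log2 fold change was 0.37, and the summed level was 232.5 to 518 CPM in ND and 337 to 834 CPM in HCD libraries. Of the 5 genes of lymphoid stroma, 1 of which (Cr2) is also a listed B cell gene, 4 were tested, 0 passed, the median was 0.28, and the summed level was 4.42 to 6.25 CPM in ND and 2.29 to 16.0 CPM in HCD libraries. That list was lowest in HCD 3 and highest in HCD 1. The part of these cell markers in the kappa V totals was not tested. The enzymes that join V and J segments were near or at 0: Rag2 had 0 counts in all 6 libraries and Rag1 had 1 count in each HCD library and 0 in the ND libraries. Dntt, an enzyme that adds bases at the joints, had 2 to 8 counts per library. Of the surrogate light chain genes of precursor B cells, Igll1 had 0 counts and Vpreb1 had 2 in ND 1, 6 in ND 3 and 0 elsewhere. All 5 of these genes were too low for the test.

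The counts fell almost wholly on segments that the annotation holds to be usable. GENCODE M21, on the same assembly as the mm10 build of the deposited table, lists 101 members as V genes and 61 as V pseudogenes. The V genes held 5419 of the 5426 counts, and 78 of 101 had at least 1 count. The pseudogenes held 7 counts in all, spread over 5 of 61, with no more than 2 for any 1 pseudogene in a library and 3 for all of them together in HCD 2. A count of 0 over all 6 libraries, which 79 members had, allows a level of up to 0.0228 CPM, a limit for counting error only. It holds only where reads of a segment could be counted. Igkv8-16 and Igkv8-23-1, both at 0, are 100% identical over their aligned V exons, so their reads may have been left out. At the 3′ end of the V exon stand the codons for tyrosine, tyrosine or phenylalanine, and the cysteine that opens the antigen-binding loop CDR3. Searched as TANTANTGN or TANTTNTGN on the coding strand of the last 40 bases, they were found in 98 of 101 V genes (97.0%) and in 35 of 61 pseudogenes (57.4%). A match is a description of the letters only.

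The segments that led a library or the sum are shown by the last 40 bases of their V exons, since this end holds the germline part of CDR3. Capitals run from the cysteine codon to the end of the exon, and sequences are 5′ to 3′ on the coding strand from GENCODE M21 transcripts (GRCm38).
Igkv1-110: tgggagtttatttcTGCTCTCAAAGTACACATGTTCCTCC
Igkv1-117: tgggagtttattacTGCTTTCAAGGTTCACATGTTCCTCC
Igkv12-46: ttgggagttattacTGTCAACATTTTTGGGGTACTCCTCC
Igkv17-121: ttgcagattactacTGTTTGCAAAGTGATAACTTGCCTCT
Igkv10-96: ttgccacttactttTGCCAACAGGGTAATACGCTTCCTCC
Igkv16-104: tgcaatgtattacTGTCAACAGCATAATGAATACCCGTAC
Igkv12-89: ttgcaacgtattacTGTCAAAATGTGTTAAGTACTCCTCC
The V exons lie at chr6:68270955-68271267 (plus strand) for Igkv1-110, chr6:68121515-68121827 (plus) for Igkv1-117, chr6:69764523-69764820 (minus) for Igkv12-46, chr6:68037021-68037318 (plus) for Igkv17-121, chr6:68631963-68632260 (minus) for Igkv10-96, chr6:68425774-68426072 (plus) for Igkv16-104 and chr6:68834846-68835143 (minus) for Igkv12-89.

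A different segment led in most libraries. The most abundant segment was Igkv12-89 in ND 1, with 14.0% of the kappa V counts, Igkv1-110 in ND 2, with 14.2%, and Igkv1-117 in ND 3, with 10.3%. In HCD 1 it was Igkv1-110 with 18.1%, in HCD 2 Igkv17-121 with 18.6%, and in HCD 3 Igkv16-104 with 35.2%. On the FPKM scale, which divides by gene length, 3 libraries had another leading segment: Igkv1-117 with 14.2% in ND 1, Igkv2-109 with 10.5% in ND 3 and Igkv12-46 with 19.5% in HCD 2. By counts, the 3 HCD shares lay above the 3 ND shares, with means of 24.0 ± 9.74% in HCD and 12.8 ± 2.18% in ND tumours (SD, n = 3 each). The exact 95% binomial intervals of HCD 1 (16.1% to 20.2%) and HCD 2 (16.8% to 20.5%) met those of ND 1 (9.25% to 19.9%) and, for HCD 1, ND 2 (12.3% to 16.3%). The interval of HCD 3, 30.1% to 40.6%, met none of the others. No p is given for this share, since it is a summary over members chosen with earlier results known.

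**Figure D2:**
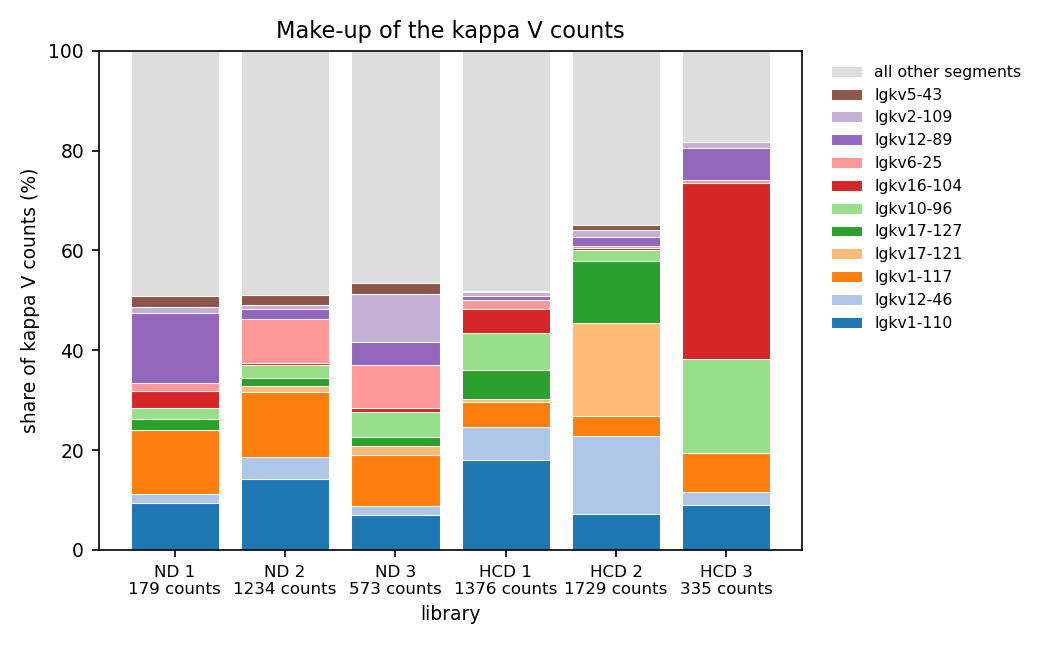
Share of the kappa V counts (%) taken by 11 named segments and by all others in each library, as stacked bars, with the kappa V total under each bar. Igkv1-110 takes at least 6.98% and Igkv1-117 at least 4.11% of every bar. Igkv17-121 and Igkv17-127 are wide in HCD 2, and Igkv16-104 and Igkv10-96 fill over 50% of HCD 3.

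Evenness separated HCD 3 from the other libraries. The effective number of segments (the inverse Simpson index, which equals the number of segments if all were equally abundant) was 15.3, 15.8 and 20.8 in ND and 16.2, 11.1 and 5.48 in HCD libraries. HCD 1 lay within the ND range and the other HCD libraries below it. In HCD 3 the 2 leading segments held more than 50% of the counts, against 4 in HCD 2, 6 in ND 1 and ND 2, 7 in HCD 1 and 8 in ND 3. The leading 10 segments held 90.1% in HCD 3, 74.0% in HCD 2 and 59.5% to 66.7% in the other 4 libraries.

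The number of segments with a count was 35, 59 and 55 in ND and 65, 56 and 26 in HCD libraries. This number rises with depth, so the number expected in 179 counts, the total of ND 1, was computed for each library. It was 35.0, 37.1 and 41.4 in ND and 42.3, 33.5 and 21.9 in HCD libraries. HCD 3 remained lowest at equal counts, although it had more kappa V counts than ND 1.

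**Figure D3:**
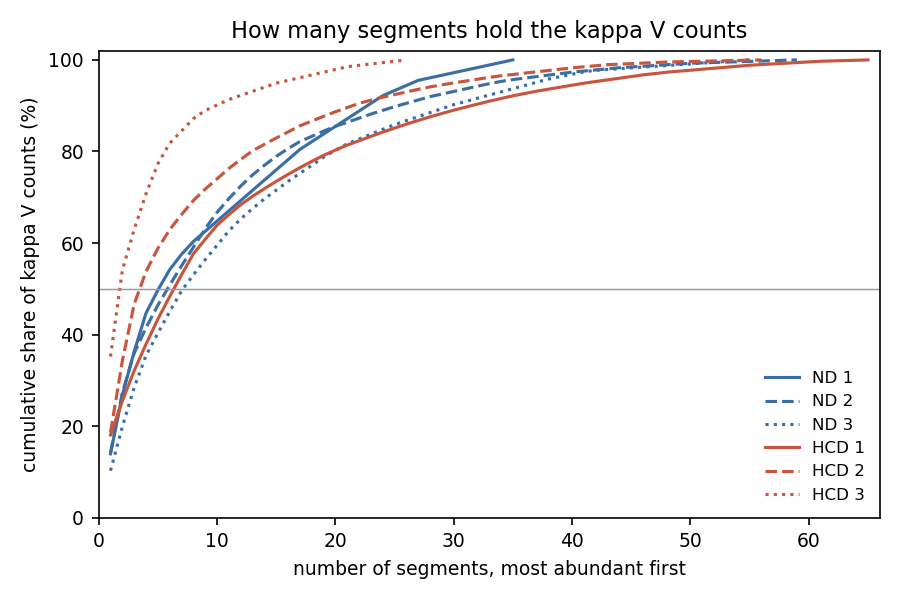
Cumulative share of the kappa V counts (%) against the number of segments, most abundant first, with 1 line per library and a grey line at 50%. The HCD 3 line crosses 50% after 2 segments and ends at 26, and the other lines cross it after 4 to 8 segments and end at 35 to 65.

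The libraries shared a few leading segments and differed in the rest. The leading 10 of the 6 libraries named 28 different segments, of which 2, Igkv1-110 and Igkv1-117, were in all 6 lists and 16 in 1 list only. Ties at the end of a list were settled by the larger sum. Lists of 2 libraries shared 3 to 6 segments over the 6 pairs within a diet and 3 to 6 over the 9 pairs between diets. Measured by composition, the smallest overlap was that of HCD 2 and HCD 3, at 26.5% of the kappa V counts, and the largest that of ND 2 and ND 3, at 58.7%. The most alike pair was thus of ND libraries and the least alike pair of HCD libraries. Overlap ran from 51.5% to 58.7% within ND, from 26.5% to 44.6% within HCD and from 34.2% to 54.9% between diets.

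Igkv1-110 had the largest sum, 634 counts. Its level was 0.759, 6.62 and 1.94 CPM in ND and 12, 5.94 and 1.46 CPM in HCD libraries, so HCD 1 was highest and the diets overlapped. Igkv1-117, with 409 counts, had 1.03, 6.13 and 2.86 CPM in ND and 3.28, 3.43 and 1.27 CPM in HCD libraries, with ND 2 highest. As a share of kappa V counts, Igkv1-117 took 12.8%, 13.1% and 10.3% in ND and 4.94%, 4.11% and 7.76% in HCD libraries, all 3 HCD values below the ND values. In CPM the same segment overlapped between diets, so the 2 scales gave different orders. By edgeR the log2 fold change (HCD over ND) was 1.05 ± 0.91 SE for Igkv1-110 and -0.33 ± 0.66 SE for Igkv1-117, with adjusted p of 0.854 and 0.919. Neither segment passed with any 1 library left out.

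The last 300 bases of these 2 V exons are printed because reads can be shared between such copies, and capitals mark the bases at which they differ. They run from chr6:68270968-68271267 and chr6:68121528-68121827, both on the plus strand (GRCm38).
Igkv1-110: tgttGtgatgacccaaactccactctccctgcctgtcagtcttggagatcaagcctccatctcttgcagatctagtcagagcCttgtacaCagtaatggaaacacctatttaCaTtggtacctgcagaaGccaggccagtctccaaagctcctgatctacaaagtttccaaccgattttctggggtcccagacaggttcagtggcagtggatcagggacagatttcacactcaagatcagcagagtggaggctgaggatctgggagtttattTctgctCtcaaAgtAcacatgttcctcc
Igkv1-117: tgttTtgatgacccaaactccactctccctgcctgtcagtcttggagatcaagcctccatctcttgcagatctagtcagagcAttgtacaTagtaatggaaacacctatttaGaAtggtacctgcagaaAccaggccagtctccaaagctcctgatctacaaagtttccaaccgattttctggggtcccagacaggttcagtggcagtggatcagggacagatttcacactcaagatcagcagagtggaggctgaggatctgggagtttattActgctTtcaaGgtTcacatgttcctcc
The whole exons differ at 10 of 313 bases, all of them shown (96.8% identity), with a longest identical stretch of 142 bases. A read that lies within that stretch fits both, and how the authors' counting treated such reads is not given in the sources used here.

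Igkv17-121 and Igkv17-127, the V genes of family 17, were high in HCD 2. Igkv17-121 had 0, 0.530 and 0.485 CPM in ND and 0.434, 15.6 and 0 CPM in HCD libraries, and HCD 2 alone held 91.5% of its summed level. Igkv17-127 had 0.179, 0.794 and 0.534 CPM in ND and 3.86, 10.4 and 0 CPM in HCD libraries, high in HCD 1 and HCD 2. Neither had a count in HCD 3. Family 17 made up 31.1% of the kappa V counts of HCD 2, 6.47% of HCD 1 and 2.23% to 3.66% of the ND libraries.
Their V exons, with differing bases in capitals, run from chr6:68037021-68037318 and chr6:67861362-67861659, both on the plus strand.
Igkv17-121: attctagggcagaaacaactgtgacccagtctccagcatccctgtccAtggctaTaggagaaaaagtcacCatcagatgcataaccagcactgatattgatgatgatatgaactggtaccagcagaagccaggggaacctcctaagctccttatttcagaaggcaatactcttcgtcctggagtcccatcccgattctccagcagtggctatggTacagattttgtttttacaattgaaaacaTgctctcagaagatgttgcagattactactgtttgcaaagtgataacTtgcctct
Igkv17-127: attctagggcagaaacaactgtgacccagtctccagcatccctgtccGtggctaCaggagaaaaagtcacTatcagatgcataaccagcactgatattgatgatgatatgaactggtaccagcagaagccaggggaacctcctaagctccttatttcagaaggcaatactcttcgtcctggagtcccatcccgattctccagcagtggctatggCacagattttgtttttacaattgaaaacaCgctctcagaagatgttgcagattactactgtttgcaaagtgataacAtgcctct
They differ at 6 of 298 bases (97.99% identity), and the longest identical stretch is 143 bases. The counts did not stand in 1 ratio: 322 to 215 in HCD 2 and 9 to 80 in HCD 1. The log2 fold changes were 3.94 ± 1.91 SE and 3.21 ± 1.41 SE, with an edgeR adjusted p of 0.839 for both. Without HCD 2 that of Igkv17-121 was -0.63, so its direction came from 1 library.

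Igkv16-104 and Igkv10-96 led HCD 3. Igkv16-104, the only member of family 16, had 0.268, 0.265 and 0.243 CPM in ND and 3.13, 0.290 and 5.75 CPM in HCD libraries. It was high in HCD 1 and HCD 3, whereas HCD 2, with 6 counts, matched the 5 to 7 counts of the ND libraries. It did not meet the minimum count for the test, with 207 counts the largest sum of any untested member. Its nearest V gene was 75.2% identical over the V exon. Igkv10-96 had 0.179, 1.13 and 1.36 CPM in ND and 4.92, 1.88 and 3.07 CPM in HCD libraries. All 3 HCD libraries lay above the ND libraries, and its log2 fold change was 1.88 ± 0.67 SE, with an unadjusted edgeR p of 0.0270 and an adjusted p of 0.839. Over the alternatives its log2 fold change ran from 1.40 to 2.29 and the smallest adjusted p was 0.581.

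Igkv12-46 was highest in HCD 2. It had 0.134, 2.04 and 0.485 CPM in ND and 4.39, 13.0 and 0.438 CPM in HCD libraries, with HCD 3 below 2 of the ND libraries. Igkv12-89 varied little, with 1.12, 0.983 and 1.31 CPM in ND and 0.530, 1.64 and 1.07 CPM in HCD libraries. The diets overlapped, and its level in ND 1, where it led with 25 counts, lay within the range of the other libraries. Their log2 fold changes were 2.71 ± 1.24 SE for Igkv12-46 and -0.07 ± 0.43 SE for Igkv12-89, with edgeR adjusted p of 0.839 and 0.974.

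Igkv6-25, Igkv2-109 and Igkv5-43 had the smallest p among tested segments with negative fold changes. Igkv6-25 had 0.134, 4.05 and 2.38 CPM in ND and 1.21, 0.242 and 0.0974 CPM in HCD libraries, high in ND 2 and ND 3 and low in ND 1, so the diets overlapped. Its log2 fold change was -2.08 ± 1.17 SE, with an edgeR adjusted p of 0.839. Igkv2-109 was high in ND 3 alone, at 2.67 CPM, against 0.0893 to 1.11 CPM elsewhere. Its log2 fold change was -0.71, and it was positive in 3 of 15 alternatives, with a highest value of 1.37. Igkv5-43 had 0.179, 0.908 and 0.582 CPM in ND and 0.145, 0.870 and 0 CPM in HCD libraries, and is 99.0% identical to Igkv5-45, so its counts are uncertain.

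**Figure D4:**
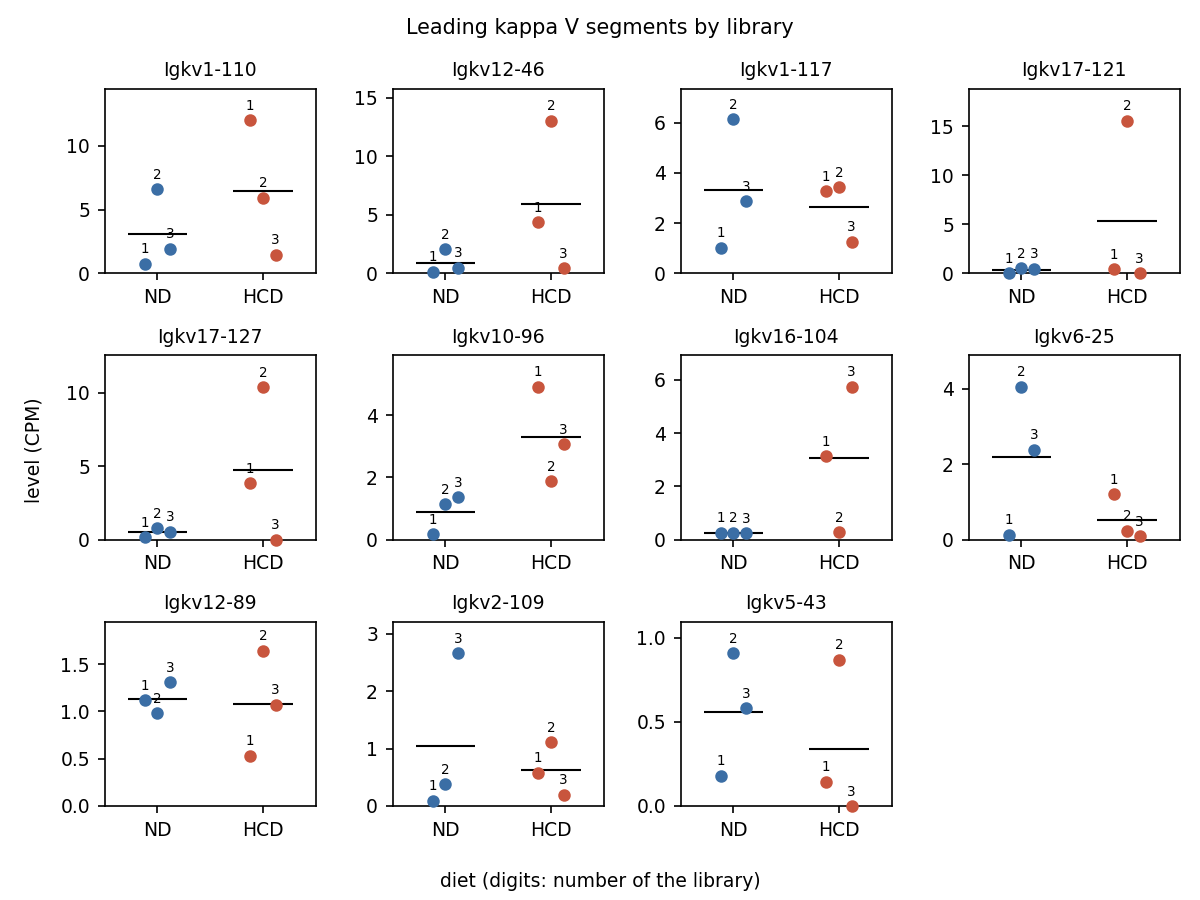
Level (CPM) of the 11 named segments, 1 panel each with its own axis from 0, with 1 point per library (digits give its number) and a bar at the mean of each diet. In most panels 1 or 2 libraries stand above the rest, such as HCD 2 for Igkv17-121 at 15.6 CPM and ND 3 for Igkv2-109 at 2.67 CPM, and Igkv10-96 is the tested segment whose diets do not overlap.

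No kappa V segment passed the test between the diets. The minimum count for the test, 10 in about 3 libraries, left 17 of the 162 members, which held 67.6% of the kappa V counts, and 66 further members had counts but were too low. By edgeR's quasi-likelihood test 0 of 17 were called higher and 0 lower at an adjusted p under 0.05, where 0% of the 15539 tested genes were called in either direction. At an unadjusted p under 0.05 there was 1 segment, Igkv10-96, and over all tested genes 282 were higher and 541 lower in HCD tumours. DESeq2, limma-voom and limma on log2(FPKM + 1) also called 0 segments. Over all genes, DESeq2 called 1 higher and 7 lower of 15539. Limma-voom called 0 of 15539, and limma on log2(FPKM + 1) called 0 of 11870. All 3 HCD libraries lay above the ND libraries for 1 of 17 tested segments, against 4.74% of all tested genes, and below them for 0 of 17, against 6.36%. The fold changes were positive for 8 and negative for 9 of the 17, from -2.08 to 3.94, with a median of -0.07 against 0.01 for all tested genes. Without ND 2 the median was 2.43 over 25 tested segments, and without HCD 2 it was -0.45 over 20. Without HCD 3, ND 3, ND 1 or HCD 1 it was 1.08, 0.73, 0.30 and 0.11, and with no minimum count it was 0.57 over 83. Since the filter passes segments that are abundant in about 3 libraries, these figures describe the tested segments only.

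A few segments had at least 80% of their level in 1 tumour, and many others had most of it there. Among the 46 segments with at least 20 counts, the highest level was in HCD 1 for 15, in HCD 2 for 15, in ND 2 for 9, in ND 3 for 6, in HCD 3 for 1 and in ND 1 for 0. These are levels in CPM, not shares, and the tally fell in the order of the kappa V totals. Those were 83.5 CPM in HCD 2, 66.3 in HCD 1, 46.7 in ND 2, 27.8 in ND 3, 16.3 in HCD 3 and 7.99 in ND 1. For 4 of the 46, at least 80% of the summed level came from 1 library: Igkv17-121 and Igkv14-100 in HCD 2, and Igkv3-10 and Igkv12-38 in HCD 1. Igkv12-38 had 21 counts in HCD 1 and 0 in the other 5 libraries, so 1 library alone can meet the limit of 20 counts. Igkv14-100 had 39 counts in HCD 2 and 2 each in HCD 1 and ND 2. A lower limit than 80% would add segments, such as Igkv13-84, with 78.6% of its summed level in ND 2, and Igkv4-55, with 73.1% in ND 3. Both limits, and these names, were chosen after the values were seen.

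By family, Igkv1 held the most counts, 1280, on 6 of its 13 members. Its share was 35.8%, 31.6% and 21.1% in ND and 25.8%, 16.8% and 17.9% in HCD libraries, so HCD 1 lay within the ND range. Igkv12 followed with 786 counts and shares of 9.16% to 20.6%. Igkv6 took 8.38%, 17.2% and 19.0% in ND and 11.6%, 4.45% and 1.49% in HCD libraries. Igkv4, the largest family with 33 members, held only 439 counts on 23 of them, 5.07% to 9.42% of each library. This was the narrowest range of any of the 5 leading families. Igkv3, Igkv9, Igkv13, Igkv17 and Igkv19 each had counts in 5 libraries and 0 in HCD 3, which held only 335 kappa V counts. Families are named by the deposited symbols. For 6 rows GENCODE M21 gives the identifier another name, and these rows held 49 counts in all, of which the row labelled Igkv12-47 (Igkv13-85 in M21) held 32.

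Along the locus, the part far from the J segments held more counts than its share of the V genes in every library, and over 50% in all but ND 2 and ND 3. The members span 3149 kb of chromosome 6, chr6:67555497-70704177. Segments over 2000 kb from Igkj1 were 28.7% of the V genes and held 54.2%, 49.5% and 46.2% of the counts in ND and 52.8%, 58.0% and 77.9% in HCD libraries. The middle part, from 1000 to 2000 kb, held 30.7% of the V genes and 14.8% of all counts, and the part within 1000 kb 40.6% and 30.5%. The far part holds Igkv1-110, Igkv1-117, both family 17 V genes, Igkv10-96 and Igkv16-104, so a few segments set its share. V genes on the same strand as Igkj1, which join by deletion, were 37.6% of the V genes and held 58.2% of all counts, from 51.0% in ND 3 to 65.0% in ND 2. The bins were chosen with the values known and the shares are descriptions.

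**Figure D5:**
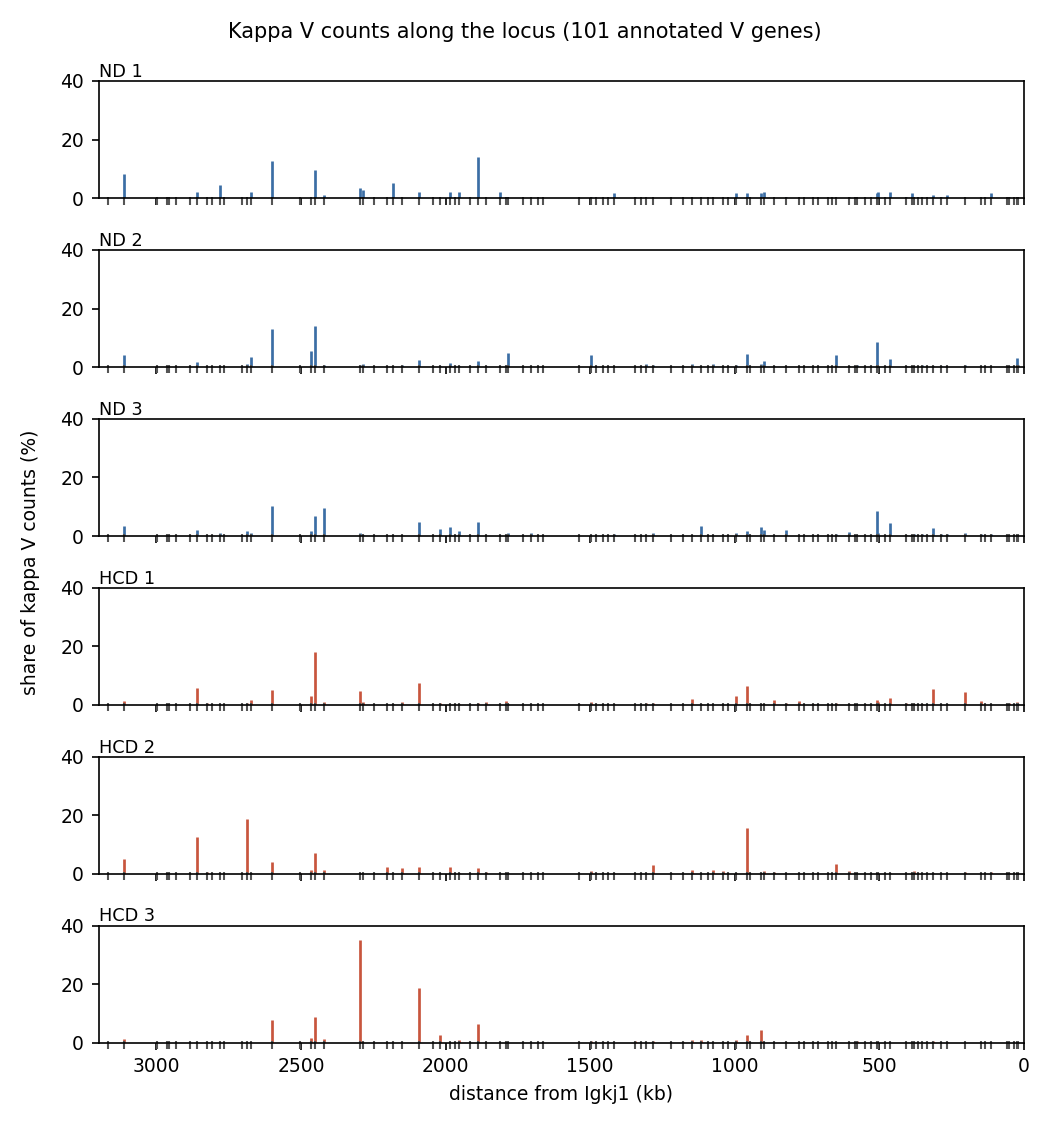
Share of the kappa V counts (%) of each of the 101 annotated V genes against its distance from Igkj1 (kb, far end at left), 1 panel per library, with ticks at every V gene. Tall lines stand mostly beyond 2000 kb, and the tallest is Igkv16-104 in HCD 3 at 35.2%.

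How many counts fell on V genes with close copies depended on the limit for a copy. The nearest other V gene was a median of 94.9% identical over the V exon, from 71.4% to 100%. The 10 V genes with a copy at 98% identity or more held 107 counts, with a median of 3, against a median of 19 for the other 91. The limit was chosen with the values known. Just under it, at 97.99%, lie Igkv17-121 and Igkv17-127, with 355 and 331 counts, and at 96.8% Igkv1-110 and Igkv1-117, with 634 and 409, which are among the most abundant segments. The part of shared reads in these counts was not tested.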

How the data were processed

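RNA of 6 tumours, 3 per diet, was sequenced from paired-end libraries. The authors' deposited values are raw counts for each gene and FPKM (scaled by gene length and library total). The submitters' processing notes name the build mm10 and, without their roles, CASAVA 1.8, TopHat2 2.0.9, edgeR and HTSeq. The annotation release, strand setting and treatment of reads with several matches are not given in the sources used here, and reads shared by near-identical segments may be missing or split.

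All genes were fitted with the quasi-likelihood test of edgeR 4.0.16 (legacy form, R 4.3.3), with diet as the only term, TMM scaling, a minimum count of 10 and minimum total of 15, a prior count of 0.125 and Benjamini-Hochberg adjustment over all 15539 tested genes at 0.05. Each standard error was derived from the F statistic of the gene. The script was tested on simulated data with the same spread for all genes and changes planted only in genes with enough counts. That check does not show which changes could be found among the kappa V segments. Shares used the counts as deposited, with exact 95% binomial intervals. Depth per library was 20351637 to 26228074 counts. Annotation and sequences are from GENCODE M21, and all 162 identifiers matched. V exons were aligned with Biopython 1.88.

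The members, marker lists and tests were chosen with earlier results of these data known. The levels of 2 listed genes are not reported here. Named segments are the 3 most abundant of each library, the 5 largest sums and the 3 smallest p in each direction. Alternatives were other scalings (DESeq2 1.42.0 size factors, upper quartile), filters and tests (DESeq2, limma 3.58.1), FPKM in place of counts, the replicate number as a block, other measures of detection and evenness, and each library left out. A fit without both ND 1 and HCD 3 was added after the data were seen.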

Additional observations from a re-analysis of the deposited data

How the results depend on the processing

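No alternative called a kappa V segment higher or lower, including the threshold of 0.1 and the fit without both ND 1 and HCD 3, which was chosen after seeing the data. DESeq2 gave no adjusted p for 1 of the 17 segments, Igkv17-121. The median log2 fold change of the tested segments ran from -0.45 to 2.43 over the fits without 1 library (2.43 without ND 2), and was 1.04 over the 3 segments left when every library of 1 diet had to reach 1 CPM. The cause was not tested. With the replicate block the median was 0.09 and 0 segments were called. For each library, the deviation of log2 CPM from the mean of its diet was taken over all tested genes. These deviations correlated at -0.307, 0.140 and 0.0832 between same-numbered libraries, so the numbers were not taken to pair the tumours. The log2 ratio of the kappa V totals ran from 0.57 to 1.63 without 1 library and from 0.93 to 1.03 under the other settings that kept all 6. With stricter limits for detection, the mean number of segments was 36.3 in ND and 37.7 in HCD libraries (at least 3 counts), and 16.0 in ND and 21 in HCD libraries (at least 10 counts), against 49.7 and 49.0 with 1 count. By the Shannon index the mean effective number was 25.8 in ND and 19.1 in HCD libraries, against 17.3 and 10.9 by the Simpson index, which weights abundant segments more by construction. Totals of 179 and 335 kappa V counts limit what can be seen in ND 1 and HCD 3.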
